A study of Mus musculus with 2 samples.

Results

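Mir126a is the mouse gene of the microRNA miR-126, and the data are its read counts in embryonic neural tube. It was chosen by name, as the row whose Ensembl identifier (ENSMUSG00000065540) belongs to Mir126a in the GENCODE annotation, which gave 1 gene of the 1973 miRNA genes listed. The tissue came from B6NCrl mouse embryos at 15.5 days of development, described as healthy, with males and females pooled. There is 1 group of 2 biological replicates: library 1 was made from the neural tubes of 78 embryos and library 2 from those of 62 embryos. RNA below 30 bases was sequenced, and the total assigned to the sense strand of miRNA genes was 4228685 reads in library 1 and 6039889 reads in library 2. With no second condition, the values answer how abundant Mir126a was and by how much the pools differed. A difference between the libraries is a difference between those pools, with no replicate check of its own.

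miR-126 is known as the microRNA of endothelial cells, the cells that line blood vessels. Its gene lies inside Egfl7, which encodes a protein that endothelial cells secrete into the vessel wall, and the microRNA is cut from the same primary transcript. In mouse and zebrafish, miR-126 represses Spred1 and Pik3r2, inhibitors of signalling downstream of vascular endothelial growth factor, and mice that lack it can have leaky vessels and haemorrhage as embryos. The neural tube makes no endothelium of its own: vessels grow into it from the plexus around it. miR-126 is also known from blood stem and progenitor cells and from platelets, so a miRNA count alone does not name the cell it came from. In RNA from whole tissue, fewer cells of a type and less RNA per cell cannot be told apart.

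The Mir126a hairpin gives rise to miR-126a-3p and miR-126a-5p. A further gene, Mir126b, is annotated on the opposite strand of the same place, and its arms are shown because their letters decide what a read on either strand can be. The sequences are those of RefSeq (GRCm38.p6), 5′ to 3′: the Mir126a hairpin at chr2:26591357-26591429 and miR-126a-3p at chr2:26591402-26591423 on the forward strand, miR-126b-5p at chr2:26591399-26591420 and miR-126b-3p at chr2:26591363-26591385 on the reverse strand. In the mature forms the capitals mark the seed, bases 2 to 8, which pairs with target messenger RNAs, and in the hairpin of Mir126a they mark miR-126a-3p.
Mir126a hairpin: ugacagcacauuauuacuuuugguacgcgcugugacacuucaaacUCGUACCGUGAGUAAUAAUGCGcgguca
miR-126a-3p: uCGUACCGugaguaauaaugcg
miR-126b-5p: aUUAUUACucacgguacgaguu
miR-126b-3p: cGCGUACCaaaaguaauaaugug

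The seed of miR-126a-3p, CGUACCG, occurred in 1 of the 1738 mature mouse entries of the RefSeq table, its own. A seed held by a single entry was common in that table, at 68.0% of entries, so it does not set Mir126a apart. The seeds of miR-126b-5p and miR-126b-3p were likewise each found in 1 entry. The RefSeq entries used here hold no mature miR-126a-5p, so its sequence is not marked and its seed was not searched. miR-126a-3p and miR-126b-5p overlap over 19 bases on opposite strands, so their overlapping parts are reverse complements of each other and a read of either is told apart by its strand. In the minimum free energy structure of the hairpin (RNAfold, -31.20 kcal/mol), 54 of the 73 bases were paired, and 19 of the 22 bases of miR-126a-3p. The counts are per gene and do not divide the reads between the arms.

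Mir126a lies on chromosome 2 of GRCm38 (mm10), at positions 26591357 to 26591429 of the forward strand, inside Egfl7 (26580014 to 26593120, forward strand). Of the 19 Egfl7 transcripts in GENCODE M21, 8 hold it in an intron, 10 do not reach it or start beyond it, and 1 holds it in an exon. In the coding transcript Egfl7-212 it lies in intron 7, which is 600 bases long, 293 bases after the preceding exon and 234 bases before the next, and 10301 bases from the start of the transcript. The transcript that holds it in an exon, Egfl7-206, is annotated as a retained intron and covers it with its exon 4. Gm20532, a longer gene on the same strand that runs to 26635634, also spans it. Mir126b occupies 26591363 to 26591420 on the reverse strand, wholly within the bounds of Mir126a.

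**Figure D1:**
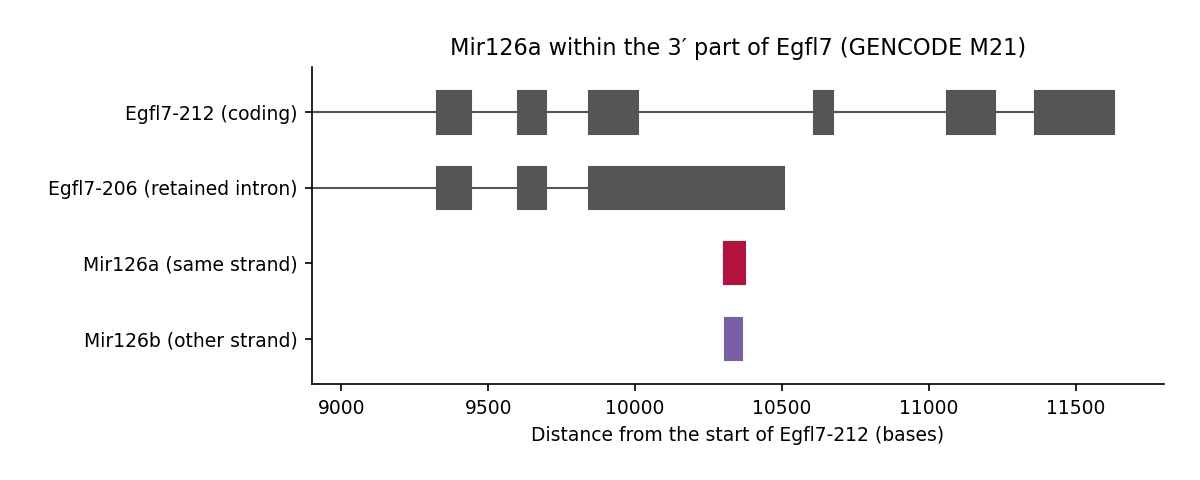
Map of the 3′ part of Egfl7, with the distance in bases from the start of transcript Egfl7-212 on the horizontal axis; boxes are exons or miRNA genes and thin lines are introns. Mir126a, 10301 bases from the start, falls in intron 7 of Egfl7-212 and within exon 4 of the retained-intron transcript Egfl7-206, and Mir126b lies opposite it.

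Counted by reads assigned to a gene, Mir126a was among the most abundant miRNA genes of the tissue. It had 93076 sense counts in library 1 and 118781 in library 2, which is 22011 CPM (counts per 1000000 sense counts in miRNA genes) in library 1 and 19666 CPM in library 2. As a share of those counts it took 2.20% in library 1 (95% exact Clopper-Pearson interval 2.19 to 2.22) and 1.97% in library 2 (1.96 to 1.98). Intervals cover counting error only, since PCR reads without molecular identifiers are not independent molecules. The mean was 20838 ± 1658 CPM (SD, n = 2), a coefficient of variation of 7.96%. Both libraries therefore gave the same order of magnitude, and the gap between them was wider than these intervals, which treat reads as independent.

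It ranked 9 among the 1973 rows in library 1, in library 2 and by the mean. The typical detected gene, meaning one with at least 10 sense counts in each library, had far less: the median of the 363 detected genes was 144 CPM in library 1, against 106 CPM in library 2, so that Mir126a held 152 times the median count in library 1 and 185 times in library 2. On the mean CPM scale, the 1851 least abundant rows, 0 counts included, together held less than Mir126a alone. Mature miRNAs are of nearly equal length (20 to 24 bases from percentile 5 to percentile 95 of the RefSeq entries), so CPM were compared between genes without scaling by length. Ligation and amplification can favour some sequences over others, and their part in the order of genes was not tested. Reads that align to several places, 29.4% of all reads in library 1 and 29.7% in library 2, were assigned to no gene. Genes with near copies may therefore rank too low here.

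In rank, Mir126a stood just under Mir335, a miRNA within the imprinted gene Mest, which had 23637 CPM in library 1, against 21044 CPM in library 2. The ranges of these neighbours over the libraries overlap, and both genes were higher in library 1. Compared within each pool, their order was the same, with Mir126a at 0.931 times Mir335 in library 1 and 0.935 times in library 2. The distance between the genes was smaller than the spread of either between pools. Mir487b, of the imprinted Dlk1-Dio3 region, had 24016 and 30140 CPM in libraries 1 and 2, and Mir100, of the Mir99 and Mir100 family, had 27565 and 29067 CPM. Both lay above the range of Mir126a in every library. Below it, Mir30e, within Nfyc, had 15528 and 15411 CPM, so that Mir126a was 1.42 times as high in library 1 and 1.28 times in library 2. Mir99b, with 13556 and 15313 CPM, and Mir130a, with 14064 and 13905 CPM, came next, and the ranges of these 3 genes did not reach that of Mir126a.

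**Figure D2:**
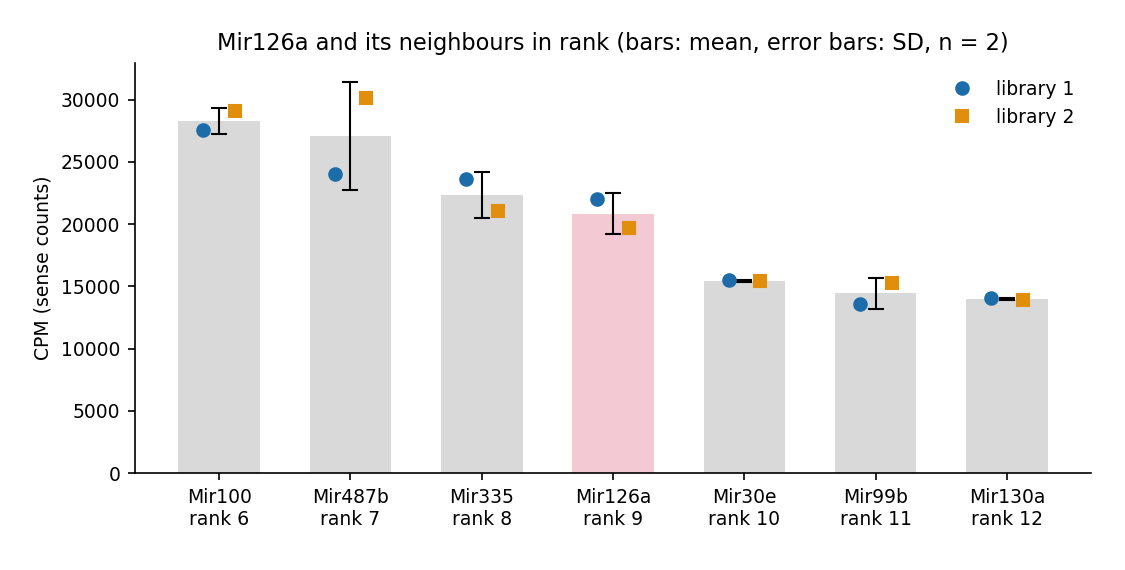
Level in CPM (vertical axis) of Mir126a and of the 3 genes above and the 3 below it by mean CPM; bars are means, error bars SD (n = 2 libraries), circles library 1 and squares library 2. Mir126a, at 22011 CPM in library 1 and 19666 CPM in library 2, overlaps in range with Mir335 and with none of the other 5 genes shown.

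The miRNA rows nearest to it on chromosome 2 had few counts or none: Mir6996, 121237 bases towards lower coordinates, had 10 sense counts in library 1 and 9 in library 2, and Gm24049, 810422 bases towards higher coordinates, had 0 in both. No count at all still permits 0.709 CPM in library 1, or 0.497 CPM in library 2, by a limit of 3 counts. Of 224 rows on chromosome 2, 27 were detected, and Mir126a ranked 2 among them, with 10.3% of the chromosome's sense counts in library 1 and 8.72% in library 2. The first was Mir10b, a miRNA of the Hoxd cluster, with 166681 and 180660 CPM in libraries 1 and 2.

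Many miRNA genes share this arrangement of lying within a protein-coding gene on the same strand. Of the 1894 rows with a place in the annotation, 854 did so and 169 of these were detected, with a median of 93.7 CPM against 136 CPM for all detected genes (means of both libraries). They took 43.4% of the sense counts of library 1 and 43.5% of library 2. Mir126a was the fourth of them by mean CPM, after Mir10b in Hoxd3 and Hoxd4, Mirlet7g in Wdr82 and Mir335 in Mest, and held 5.07% of the counts of such genes in library 1 and 4.52% in library 2.

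The reads came almost entirely from the Mir126a strand. On the opposite strand, where Mir126b is annotated, 3 reads were counted in library 1 and 4 in library 2. These made up 0.00322% of the reads at the place in library 1 (95% exact interval 0.000665 to 0.00942) and 0.00337% in library 2 (0.000918 to 0.00862). That is 0.709 CPM and 0.662 CPM for libraries 1 and 2, close to the limit that 0 counts leave. Mir126b has no row of its own here, so these antisense reads are the only measure of its strand. Of the 363 detected genes, 335 had 0 antisense reads in both libraries together and 22 had a higher antisense share than Mir126a.

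Places where miRNA genes are annotated on both strands varied widely in this respect. GENCODE M21 holds 32 such pairs of which exactly 1 partner has a row, and in 29 of them the place had at least 10 reads in each library. In 14 of the 29, at least 1% of the reads lay on the strand opposite to the row. Mir142b is an example, with 0 sense reads in both libraries and 5684 and 975 antisense reads, on the strand of the leukocyte gene Mir142. The Mir126a place was near the other end: 19 pairs had a higher share, 8 had 0, and Mir30e, opposite Mir30f, had 1 and 0 antisense reads.

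Mir126a was modestly higher in library 1. Its CPM was 1.12 times that of library 2 (95% exact counting interval 1.11 to 1.13), or 0.16 on the log2 scale (library 1 over library 2). The ratio fell short of 1.5-fold, a size that 13.2% of the 363 detected genes reached in either direction. It passed 1.1-fold, as did 59.5% of detected genes in either direction: 35.8% were that much higher in library 1 and 23.7% that much lower. Many detected genes thus differed by as much or more. With TMM factors the ratio was 1.09, with DESeq2 size factors 1.096, and with library sizes that leave out the 3 most abundant genes 1.06, so the passing of 1.1-fold rests on the scaling while the direction did not change. Under that last scaling 107 genes were at least 1.1-fold higher and 130 at least 1.1-fold lower in library 1, against 130 and 86 as reported.

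Set among all detected genes, the shift was of middling size. Over the detected genes the median log2 ratio was 0.03, with quartiles of -0.12 and 0.28, so Mir126a lay 0.13 above the median, between the quartiles. Of the detected genes, 169 had a smaller absolute log2 ratio and 193 a larger. Counting noise widens the ratios of rare genes, and among the 84 genes of at least 1000 CPM the median absolute log2 ratio was 0.13, with 49 genes closer to 0 than Mir126a and 34 farther.

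**Figure D3:**
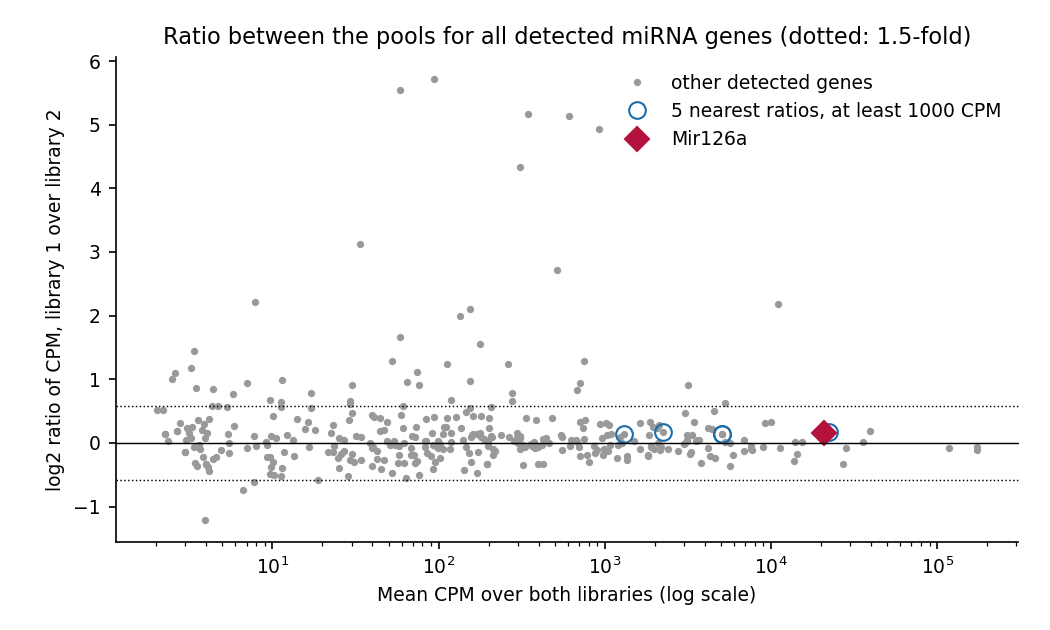
The log2 ratio of CPM in library 1 over library 2 (vertical axis) against the mean CPM on a log scale (horizontal axis), each point 1 of the 363 detected genes; dotted lines mark 1.5-fold. Mir126a (diamond) lies at 0.16, inside the 1.5-fold band and close to the 5 circled genes whose ratios are nearest to it.

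The genes of at least 1000 CPM whose ratio was nearest to that of Mir126a were picked by the distance between log2 ratios, over the 2 libraries. Mir335 was the closest, with a log2 ratio of 0.17, followed by Mir423 (0.18), Mirlet7d (0.14), Mir107 (0.14) and Mir322 (0.14). Mir423 had 2384 CPM in library 1, against 2109 CPM in library 2, and Mirlet7d, of the let-7 family, had 5337 and 4831 CPM. Mir107 shares 20 bases with another precursor. With 2 libraries such nearness describes a single number per gene.

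Other miRNA genes known from vessel growth were less abundant than Mir126a. Of the 19 listed, 17 have a row, and all 17 were detected and lay below it, at a median of 705 CPM (mean of both libraries) against 136 CPM for all detected genes. Mir126a ranked 9 among the 1973 rows by mean CPM, so nearly every detected gene lay below it as well. Mir378a and Mir24-1 have no row of their own. Reads on the Mir378a strand were counted as antisense of Gm25301, 10522 in library 1 and 10124 in library 2. Those on the Mir24-1 strand were counted as antisense of Mir3074-1, 57 in library 1 and 56 in library 2. These are raw counts, not scaled to library size, and library 2 was the larger (6039889 sense counts against 4228685 in library 1). Both genes are left out of the list. Together the 17 held 51784 CPM in library 1, against 43545 CPM in library 2, so that Mir126a alone equalled 0.425 of their sum in library 1 and 0.452 in library 2. The highest were Mir130a, known from human endothelial cells to repress the antiangiogenic homeobox genes Meox2 and Hoxa5, then Mir23b at 10057 ± 1613 CPM and Mir17 at 9253 ± 1401 CPM (SD, n = 2). Mir296 reached 1944 ± 239 CPM, and Mir132, which in human endothelium represses the Ras inhibitor Rasa1 but is also a neuronal miRNA, reached 808 ± 120 CPM (SD, n = 2).

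Most of these were further above library 2 than Mir126a was. In the list, 14 of 17 genes were at least 1.1-fold higher in library 1 and 1 was at least 1.1-fold lower, beside the background of 35.8% and 23.7% of detected genes given above, and their median log2 ratio was 0.33 against 0.03 over all detected genes. These counts of 14 and 1 were the same under each of the scalings tried. Several of the 17 belong to shared clusters, such as the Mir17 cluster and the Mir221 and Mir222 pair. Their ratios are therefore not independent of each other. Mir19b-1, counted among the 14, had only 27 and 26 counts in libraries 1 and 2, a ratio of 1.48 (0.83 to 2.65). Marker lists of other cells were also higher in library 1, smooth muscle and pericytes by 4.54-fold, epithelium by 8.66-fold and leukocytes by 1.83-fold on the sense strand, and their part in these counts was not tested. The ratio exceeded that of Mir126a in 14 of 17 genes, and in 118 of the 363 detected genes. Mir20a, of the Mir17 cluster, had 3524 CPM in library 1, against 2548 CPM in library 2, a ratio of 1.38 (counting interval 1.35 to 1.41). Mir221, which in human endothelial cells represses the receptor Kit, had 170 and 122 CPM, 1.40-fold higher in library 1 (1.26 to 1.55). The 1 gene that was lower by this measure was Mir132, with 724 CPM in library 1, against 893 CPM in library 2, 0.811 times as high in library 1 (0.775 to 0.848). Of the 17 genes, 7 share 20 bases with another precursor, so their levels may be too low, because reads that align to several places were assigned to no gene. Mir126a shares no such stretch on its strand.

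Markers of other cell types were measured in the same libraries. Of the endothelial list, Mir126a is the only member with a row and messenger RNA was not counted, so its endothelial label could not be checked against other endothelial genes. Smooth muscle and pericytes, which wrap vessels, are marked by Mir143 and Mir145a. Mir143 had 17950 CPM in library 1, against 3951 CPM in library 2, and Mir145a had 250 CPM and 58.3 CPM, while Mir145b had 0 counts in both. The summed level of these 3 genes was 18200 CPM in library 1, against 4009 CPM in library 2, so Mir126a stood at 1.21 times this list in library 1 and 4.91 times in library 2. The list was 4.54 times as high in library 1 as in library 2 (95% exact counting interval 4.47 to 4.61), and Mir126a 1.12 times.

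Blood cell genes were each far below Mir126a. The erythroid genes Mir451a, Mir144 and Mir486, all 3 detected and the only ones of 4 listed with a row, summed to 202 CPM in library 1, against 183 CPM in library 2. Mir126a was 109 times this sum in library 1 and 107 times in library 2, and the list's ratio of library 1 to library 2 was 1.11 (95% exact counting interval 1.01 to 1.21), with Mir126a at 1.12. The leukocyte genes Mir223, Mir150 and Mir155, 3 detected of 4 with a row and 6 listed, summed to 433 CPM and 237 CPM on the sense strand, a ratio of 1.83 (1.70 to 1.96). That sum leaves out the reads on the Mir142 strand of the Mir142b row, which came to 1344 CPM in library 1, against 161 CPM in library 2, a ratio of 8.33 (7.78 to 8.92). With them the leukocyte list came to 1777 CPM in library 1, against 399 CPM in library 2, a ratio of 4.46 (4.26 to 4.67), and Mir126a was 12.4 times this sum in library 1 and 49.3 times in library 2. The list was thus further above library 2 than Mir126a was, although Mir150, one of its members, had a ratio of 1.07. Mir223, which platelets also hold, had 204 CPM in library 1, against 104 CPM in library 2. The part of blood cells in the Mir126a counts and in their ratio was not tested.

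Epithelial genes differed far more between the pools than Mir126a did. All 7 listed (Mir200a, Mir200b, Mir200c, Mir141, Mir429, Mir205 and Mir203) were detected, and they summed to 5458 CPM in library 1, against 631 CPM in library 2, a ratio of 8.66 (8.36 to 8.96). Most of the library 2 sum was Mir203, with 934 CPM in library 1, against 485 CPM in library 2, a ratio of 1.93. The other 6 genes summed to 4525 CPM in library 1, against 146 CPM in library 2, a ratio of 31.0 (29.0 to 33.2), and ranged from 20.1-fold for Mir205 to 52.8-fold for Mir141. Mir126a was 4.03 times the sum of all 7 in library 1 and 31.2 times in library 2. The summed neural lists were slightly lower in library 1: the neuron list (5 of 8 detected, the 3 Mir124a copies below the limit) summed to 10107 CPM and 10728 CPM, and the oligodendrocyte list (3 of 3 detected) to 2095 CPM and 2328 CPM in libraries 1 and 2. The largest members carried these sums: Mir137 had a ratio of 0.916 and Mir219a-2 of 0.875. Mir128-2 was lower too, at 0.871 (0.831 to 0.913), as was Mir219a-1 at 0.941 (0.828 to 1.07). Mir128-1 had a ratio of 0.996, while Mir138-1, Mir138-2 and Mir338 each had a ratio of 1.06. The median log2 ratio of the 5 detected neuron genes was -0.0059. Mir126a equalled 2.18 times the neuron sum in library 1 and 1.83 times in library 2. Of the 8 neuron genes, 7 share 20 bases with another precursor, so that sum may be too low. The part of the epithelial and smooth muscle excess of library 1 in the ratios of Mir126a and of the vessel growth list was not tested.

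**Figure D4:**
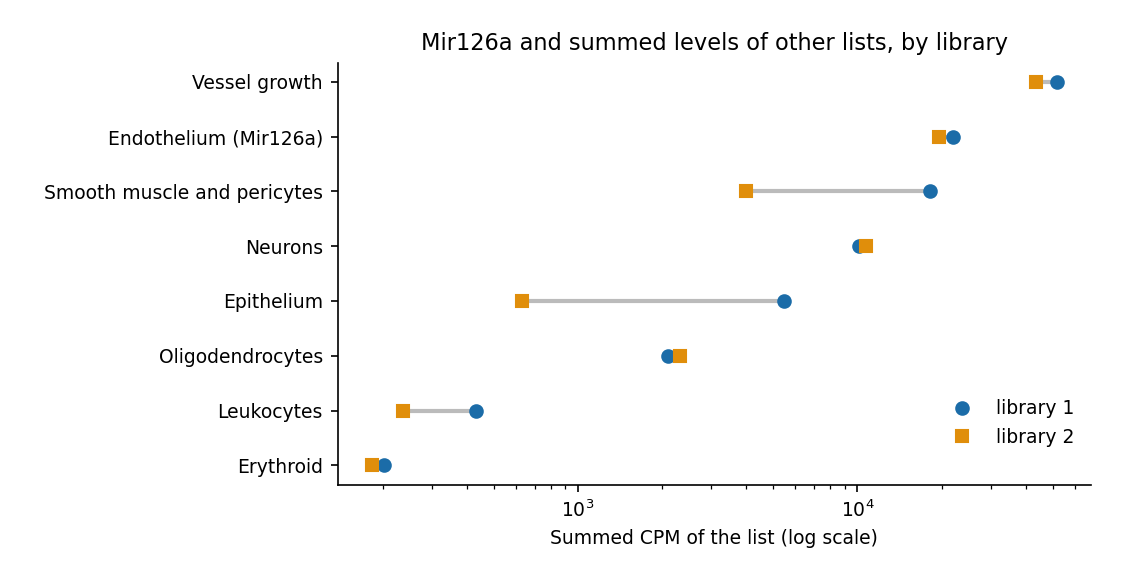
Summed CPM on a log scale (horizontal axis) of Mir126a and of each marker list (rows), sense strand, in library 1 (circles) and library 2 (squares), joined by a grey line. Mir126a, at 22011 and 19666 CPM in libraries 1 and 2, shows a narrow gap beside the wide gaps of smooth muscle and pericytes (18200 and 4009 CPM) and of epithelium (5458 and 631 CPM). The gaps of the erythroid, neuron, oligodendrocyte and vessel growth lists are narrow too (ratios of library 1 to library 2 of 1.11, 0.942, 0.900 and 1.19).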

How the data were processed

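The authors deposited 1 table per library with raw read counts per miRNA gene (without regard to strand, sense and antisense), on mm10 with annotation release M4 per the texts deposited with the samples. Aligner and counter were not given in the sources used here. The leading entries that name no gene, 45.7% of reads in library 1 and 47.7% in library 2, multimapping reads included, were left out of library sizes. Of the stranded columns, the fuller was read as sense. CPM, ranks and ratios with 95% exact intervals came from sense counts (Python 3.11.15, pandas 2.3.3, scipy 1.17.1). No test between conditions was possible and no p-value was computed. Symbols came from GENCODE M21, which matched 1894 of 1973 identifiers by the identifier without its version. TMM factors (edgeR 4.0.16) and DESeq2 1.42.0 size factors, both from detected genes, were alternatives. The interval was tried on simulated counts with counting error only, which cannot show how well it holds for reads that are not independent. The replicates' separate pools are as labelled. Named genes were Mir126a, the listed marker and vessel genes, 3 neighbours in rank on each side, the 5 nearest in ratio, its neighbours on the chromosome and sharers of its seed. Mir142b's strand values, the antisense reads of Mir30e, Gm25301 and Mir3074-1, and the genes above Mir126a on its chromosome or inside host genes were named with their values already known. The gene and the lists were chosen with earlier results of these data known.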

Additional observations from a re-analysis of the deposited data

How the results depend on the processing

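The rank of 9 held without regard to strand and in each library alone (9 without either replicate), and was 8 among genes that share no 20 bases with another precursor, where fewer genes are ranked. The mean level of 20838 CPM ranged from 19666 to 22011 when a replicate was left out and stayed within its SD without regard to strand (20484), with TMM factors and with DESeq2 size factors. By construction it was 10931 CPM with all reads as library size and 38988 CPM without the 3 most abundant genes. On the log2 scale the ratio between the libraries (1 over 2) was 0.16 with either pseudocount and without regard to strand, 0.21 with all reads as library size, 0.084 without the 3 most abundant genes, 0.13 with TMM factors and 0.13 with DESeq2 size factors. The number of genes past 1.5-fold was 48, from 48 to 50 with TMM factors, with DESeq2 size factors or without regard to strand, 163 when 1 count in each library was enough, which adds rare genes, and 29 when 100 counts were required, which removes them. The count of 14 vessel growth genes under other scalings was an alternative added after seeing the data, as were the leukocyte list with the Mir142 strand (ratio 4.46, against 1.83) and the epithelial list without Mir203 (31.0, against 8.66). The antisense share was 0.00322% to 0.00337% with a replicate left out. No paired analysis was possible because there is a single group. Reads that align to several places were not counted, and 2 libraries allow no test of the difference between pools.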
